A study of Homo sapiens with 9 samples.

Results

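The interleukin-1 (IL-1) axis was followed through 10 genes, chosen by their symbols: the ligands IL1A, IL1B and IL33, the receptor antagonist IL1RN, the receptors IL1R1, IL1R2, IL1RAP and IL1RL1, and the receptor-associated kinases IRAK1 and IRAK3. All 10 were found, each once, among the 19389 genes of the expression table. The cells were SW1353, a human chondrosarcoma line used as a model of chondrocytes, in 3 groups of 3 mRNA libraries. In the PBSL plus IL-1β group, cells were given PBSL, made from larvae of the beetle Protaetia brevitarsis seulensis, 2 h ahead of IL-1β at 20 ng/mL for 20 h. In the IL-1β group, cells had the same cytokine exposure without PBSL, and in the untreated group they had neither agent. No group had PBSL without IL-1β, and the PBSL dose behind these libraries is not given in the sources used here. All groups come from 1 cell line, and nothing says that the replicates were separate cultures, so p-values measure only the spread between these libraries.

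IL-1α and IL-1β bind the receptor IL1R1, which then recruits the co-receptor IL1RAP and, inside the cell, MyD88 and the IRAK kinases, ending in NF-κB and MAP kinase activation. The pathway carries its own brakes: the receptor antagonist occupies IL1R1 without recruiting IL1RAP, and IL1R2 binds ligand as a decoy without a signalling domain. IRAK3 (IRAK-M) is known as an inhibitory member of the IRAK family in monocytes and macrophages. In cartilage IL-1 is known for inducing matrix proteases and its own expression, and the antagonist is used as a drug. IL-33 is an alarmin that signals through another receptor of the family, IL1RL1 (ST2), with the same co-receptor. The IL-1β given to the cells was protein, which RNA sequencing does not read, so IL1B values are of the cells' own transcript.

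IL1A, IL1B and IL1RN lie in 1 cluster on chromosome 2, and the sequences upstream of them are shown because these 3 genes had the largest changes with IL-1β among the genes tested here from the axis. Each is the 250 bases before a RefSeq start site (GRCh38.p14), 5′ to 3′ on the strand of the gene. They are chr2:112784494-112784743 (minus strand) for IL1A, chr2:112836780-112837029 (minus strand) for IL1B, and chr2:113117721-113117970 and chr2:113127348-113127597 (plus strand) for IL1RN windows 1 and 3. Capitals mark matches to 4 motifs searched on both strands: AP-1 (TGANTCA), the C/EBP core (TTGCNNAA), the interferon-stimulated response element (GAAA, any 2 bases, GAAA) and the TATA box (TATAAA).
IL1A: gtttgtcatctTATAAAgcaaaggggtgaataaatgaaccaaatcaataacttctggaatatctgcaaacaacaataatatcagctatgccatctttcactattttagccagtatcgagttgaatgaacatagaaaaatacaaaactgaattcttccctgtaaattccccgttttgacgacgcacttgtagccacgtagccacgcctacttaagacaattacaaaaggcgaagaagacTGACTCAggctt
IL1B: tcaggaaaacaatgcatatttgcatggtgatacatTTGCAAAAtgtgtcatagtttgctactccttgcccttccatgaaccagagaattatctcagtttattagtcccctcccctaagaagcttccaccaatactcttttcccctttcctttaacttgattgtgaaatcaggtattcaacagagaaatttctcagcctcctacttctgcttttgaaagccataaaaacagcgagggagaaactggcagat
IL1RN window 1: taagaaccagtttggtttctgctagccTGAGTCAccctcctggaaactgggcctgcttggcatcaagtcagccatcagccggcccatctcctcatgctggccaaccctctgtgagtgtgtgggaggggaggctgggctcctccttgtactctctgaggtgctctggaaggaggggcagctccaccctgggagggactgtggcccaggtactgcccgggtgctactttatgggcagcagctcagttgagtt
IL1RN window 3: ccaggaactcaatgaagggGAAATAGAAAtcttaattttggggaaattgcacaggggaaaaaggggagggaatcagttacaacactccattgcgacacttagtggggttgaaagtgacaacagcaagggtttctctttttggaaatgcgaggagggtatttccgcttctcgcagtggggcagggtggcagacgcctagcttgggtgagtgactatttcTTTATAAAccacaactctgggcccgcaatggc
The IL1A window held an AP-1 match whose first base was at -12 from the start and a TATAAA match at -239. The IL1B window held 1 C/EBP core match at -215. IL1RN window 1 held an AP-1 match at -223, and window 3 an interferon-element match at -231 and overlapping TATAAA matches on opposite strands at -32 and -30. The NF-κB consensus, searched by name, had no match in these 4 windows and was found in windows of IL1R2 and IRAK1. Of all 35116 RefSeq windows, which also take in 50 bases after the start, 7.71% held the AP-1 letters, 10.5% the C/EBP core, 3.57% the interferon element, 11.5% TATAAA and 11.3% the NF-κB consensus. The 19 windows of the axis genes held them in 5, 2, 2, 5 and 2 cases in that order, but some windows overlap. The IL1A windows 1 and 2 share their AP-1 matches, and both interferon-element cases are 1 site in the overlapping IL1RN windows 2 and 3. A match is a description of letters, not of a bound site.

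The deposited values were normalized for gene length and depth, and summed to between 523758 and 553196 per library. The number of reads behind each is unknown, and values are given below as deposited, with means ± SD over 3 libraries. A gene was tested when it reached 1 in at least 3 libraries, which held for 11924 genes and for 6 of the 10. IL33, IL1R2, IL1RL1 and IRAK3 fell below this filter. IL1A, IL1B and IL1RN passed it through libraries given IL-1β, so the number called among the 6 is a description and supports nothing. Of the 13 chondrocyte markers listed, 8 were below 1 in every library, among them COL2A1 with a highest value of 0.027, while SOX9 reached 12.8 and ACAN 2.15.

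**Figure D1:**
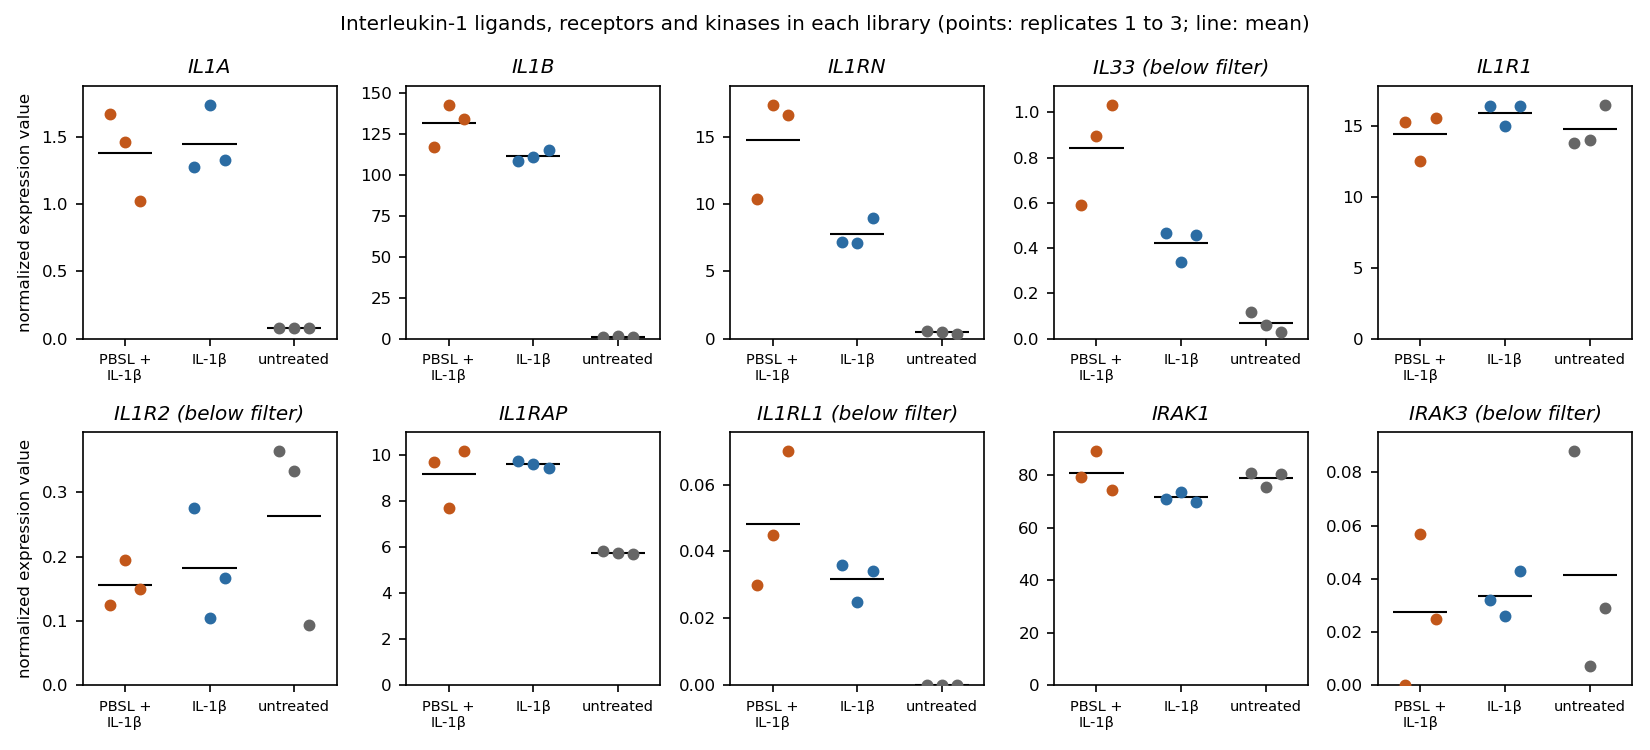
Normalized expression value (y axis, linear, its own scale in each panel) of the 10 genes in PBSL plus IL-1β, IL-1β and untreated libraries. Points are the 3 replicates of a group and lines their means. IL1A, IL1B, IL1RN, IL33 and IL1RAP lie higher in both IL-1β groups than in untreated cells, as does IL1RL1, at no more than 0.07. For IL1RN, IL33, IL1B and IRAK1 all PBSL plus IL-1β points lie above the IL-1β ones.

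The first comparison asked what 20 h of IL-1β did to the transcripts of its own axis. IL1B, IL1RN, IL1A and the co-receptor IL1RAP rose, the signalling receptor IL1R1 and the kinase IRAK1 were not called, and no tested gene of the axis fell. In counts, 4 of the 6 tested genes were called higher at an adjusted p under 0.05, where 32.1% of all tested genes were called in either direction and 16.2% higher. The 2 groups did not overlap for 5 of the 6, with IL1B, IL1RN, IL1A and IL1RAP wholly higher and IRAK1 wholly lower, where 52.8% of all tested genes did not overlap, 25.7% higher and 27.1% lower. The other 4 of the 10 stayed below the filter. Fewer cells of a type and less RNA per cell cannot be told apart in such bulk libraries.

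IL1B, the secreted ligand that is matured by caspase-1, had 117, 143 and 134 in the PBSL plus IL-1β libraries, 108, 111 and 115 in the IL-1β libraries and 0.824, 1.26 and 0.674 in the untreated ones. All 6 libraries given IL-1β stood far above the 3 untreated ones. The mean was 111 ± 3.25 with IL-1β and 0.921 ± 0.307 in untreated cells, a ratio of 121. The fitted log2 fold change, on the scale of value + 1, was 5.88 (SE 0.102, limma adjusted p = 1.91e-12). All 3 tested macrophage and monocyte markers were also called higher with IL-1β: CD68 was at 93.7 to 97.0 with IL-1β and 68.0 to 75.4 untreated, CSF1R at 3.72 to 3.81 with IL-1β and 2.69 to 3.06 untreated, and FCER1G at 1.44 to 1.88 with IL-1β and 0.583 to 0.928 untreated. FCER1G passed the filter only through libraries given IL-1β. The other 7 were not tested, and the leukocyte marker PTPRC was at most 0.063 with IL-1β and at most 0.393 untreated. LYZ, the highest of the 7, was at 0.729 to 0.99 with IL-1β and 0.891 to 1.06 untreated. CD14 was at 0.194 to 0.53 with IL-1β and 0.106 to 0.327 untreated.

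IL1A encodes IL-1α, a ligand of the same receptor that is already active as a precursor and is often kept inside the cell. It had 1.67, 1.46 and 1.02 with PBSL plus IL-1β, 1.28, 1.74 and 1.33 with IL-1β, and 0.076, 0.079 and 0.076 untreated. The 2 IL-1β groups overlapped and both lay wholly above untreated cells. The ratio of means was 18.8 between IL-1β and untreated cells, yet the log2 fold change of value + 1 was 1.18 (SE 0.114, limma adjusted p = 9.14e-06). That scale compresses low values: with 0.1 added in place of 1 and no filter, the log2 fold change was 3.12. On this length-normalized scale the level of IL1A with IL-1β was 1.45 ± 0.254, beside 111 for IL1B.

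IL33 was measured at a level below the filter. It had 0.591, 0.897 and 1.03 with PBSL plus IL-1β, 0.466, 0.338 and 0.457 with IL-1β, and 0.119, 0.061 and 0.029 untreated. The groups did not overlap in either comparison. In a fit without the filter, where 22.8% of 17613 genes were called, IL33 was higher with IL-1β than in untreated cells by 0.41 on the log2 scale (SE 0.0850, limma adjusted p = 0.00848), or 6.03 times in linear means.

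IL1RN, which encodes the receptor antagonist, had 10.4, 17.4 and 16.7 with PBSL plus IL-1β, 7.22, 7.13 and 8.996 with IL-1β, and 0.537, 0.509 and 0.361 untreated. No library of any group reached into another group. IL-1β libraries averaged 7.78 ± 1.05 and untreated ones 0.469 ± 0.0946, a ratio of 16.6 and a log2 fold change of 2.57 (SE 0.157, limma adjusted p = 1.78e-07). The antagonist and both IL-1 ligands were thus all higher after IL-1β.

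The ratio of antagonist to ligand was lower with IL-1β. Within a library, the IL1RN value was 6.66%, 6.44% and 7.84% of the IL1B value with IL-1β, against 65.2%, 40.3% and 53.6% in untreated cells. The 2 groups did not overlap, at means of 6.98% ± 0.751 and 53.0% ± 12.5. The log2 ratio of the 2 values, each plus 1, differed by -3.31 (exact permutation test, two-sided p = 0.1, the smallest p that 3 against 3 allows). This ratio is of transcripts, both of them near or below 1 in untreated cells.

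Among the receptors, IL1RAP, the co-receptor shared by IL1R1 and IL1RL1, was the one called. It had 9.69, 7.71 and 10.2 with PBSL plus IL-1β, 9.74, 9.63 and 9.44 with IL-1β, and 5.85, 5.74 and 5.70 untreated. The untreated libraries all lay below both other groups. IL-1β against untreated gave a ratio of 1.67 and a log2 fold change of 0.65 (SE 0.0850, limma adjusted p = 0.00011).

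IL1R1, the receptor that signals, had 15.3, 12.5 and 15.5 with PBSL plus IL-1β, 16.4, 15.0 and 16.4 with IL-1β, and 13.8, 13.97 and 16.5 untreated. All groups overlapped. Its log2 fold change with IL-1β was 0.11 (95% interval -0.09 to 0.30, limma adjusted p = 0.397), so a rise of more than 0.30 lay outside the interval. The gene shares its locus with the antisense transcript IL1R1-AS1, and whether counting used strand is not given in the sources used here.

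IL1R2, the decoy receptor, stayed near 0. It had 0.124, 0.194 and 0.150 with PBSL plus IL-1β, 0.275, 0.105 and 0.166 with IL-1β, and 0.364, 0.333 and 0.094 untreated, with overlap between all groups. The decoy was low in untreated cells as well, at 0.264 on average against 14.7 for IL1R1. The log2 ratio of IL1R2 to IL1R1 differed by -0.20 between IL-1β and untreated cells with 1 added to each value (exact permutation test, two-sided p = 0.4). With 0.1 added it differed by -0.42.

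IL1RL1, the IL-33 receptor, had 0.030, 0.045 and 0.070 with PBSL plus IL-1β and 0.036, 0.025 and 0.034 with IL-1β, and was listed at 0 in the 3 untreated libraries. Without the filter, 29.3% of 17613 genes were called in PBSL plus IL-1β against untreated cells and 22.8% in IL-1β against untreated cells. IL1RL1 was called in the first (log2 fold change 0.07, limma adjusted p = 0.0334) and not in the second (0.04, limma adjusted p = 0.154). The pseudocount sets the size of these folds: with 0.1 added they were 0.56 (adjusted p = 0.0140) and 0.40 (adjusted p = 0.0723). Whether these 2 differences differ from each other is the comparison of the 2 IL-1β groups, which gave 0.02 (limma adjusted p = 0.526). IL1RL1 overlaps IL18R1 on the same strand, and how reads in the shared stretch were counted is not given in the sources used here.

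Of the kinases, IRAK1 is recruited to the active receptor through MyD88. It had 79.4, 89.3 and 74.4 with PBSL plus IL-1β, 71.1, 73.7 and 70.0 with IL-1β, and 81.1, 75.5 and 80.7 untreated. The IL-1β libraries all lay below the untreated ones, by a log2 fold change of -0.14 (SE 0.0654, limma adjusted p = 0.124). The call was made only in a fit to the 2 groups alone (adjusted p = 0.0211) and without PBSL plus IL-1β library 2 (adjusted p = 0.0475). IRAK3 was at most 0.088 in any library and, in the fit without the filter, was not called in any comparison.

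Levels of different genes can be set side by side on this length-normalized scale. In PBSL plus IL-1β cells the highest level was that of IL1B at 131, followed by IRAK1 at 81.0, IL1RN at 14.8, IL1R1 at 14.5 and IL1RAP at 9.19, and the libraries of IL1RN and IL1R1 overlapped. In IL-1β cells the order was IL1B at 111, IRAK1 at 71.6, IL1R1 at 15.9, IL1RAP at 9.60 and IL1RN at 7.78, with no overlap between neighbours from IL1B down to IL1R2. In untreated cells IRAK1 came first at 79.1, before IL1R1 at 14.7, IL1RAP at 5.76, IL1B at 0.921 and IL1RN at 0.469, and the other 5 averaged at most 0.264. Neighbours overlapped there between IL1RN and IL1R2 and among IL1A, IL33 and IRAK3.

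The second comparison asked what PBSL before IL-1β changed. The antagonist IL1RN was the 1 tested gene of the 6 that was called, and it was higher with PBSL. IL1B, IL1A, IL1R1, IL1RAP and IRAK1 were not called. Over all tested genes 22.5% were called in this comparison, 11.5% higher and 11% lower, so 1 of 6 is near the background share. Each PBSL plus IL-1β library exceeded each IL-1β library for IL1RN, IL1B and IRAK1, 3 of the 6, where 41.8% of all tested genes did not overlap, 21.7% higher and 20.1% lower. The number of genes called, 2684 with all libraries, moved with single libraries: 1451, 1304 and 1355 were called without IL-1β library 1, 2 or 3, 1434 without PBSL plus IL-1β library 2, and 3910 without PBSL plus IL-1β library 1.

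IL1RN averaged 14.8 ± 3.86 with PBSL plus IL-1β and 7.78 ± 1.05 with IL-1β, 1.90 times as high. The log2 fold change was 0.82 (SE 0.157, 95% interval 0.48 to 1.17, limma adjusted p = 0.00542). The call was made under all 17 alternatives run, with adjusted p between 5.33e-05 and 0.0265. Libraries 2 and 3 stood 1.07 and 1.01 above the IL-1β mean on the log2 scale and library 1 stood 0.38 above it. Without library 1 the log2 fold change was 1.04, without library 2 it was 0.70 and without library 3 it was 0.73. Of the 3 tested macrophage and monocyte markers, CD68 was called lower, at 79.5 to 85.4 with PBSL plus IL-1β and 93.7 to 97.0 with IL-1β. CSF1R (log2 fold change -0.11, limma adjusted p = 0.283) and FCER1G (0.10, limma adjusted p = 0.634) were not called. The part of such markers in the IL1RN values was not tested.

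IL1B was 131 ± 13.2 with PBSL plus IL-1β and 111 ± 3.25 with IL-1β. Its 3 PBSL plus IL-1β libraries all lay above the IL-1β ones. The log2 fold change was 0.23 (SE 0.102, 95% interval 0.01 to 0.46, limma adjusted p = 0.125), and the call was made only without PBSL plus IL-1β library 1 (0.31, adjusted p = 0.0388). Leaving out any 1 library gave between 0.17 and 0.31.

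The ratio of antagonist to ligand was higher with PBSL in each library. The IL1RN value was 8.89%, 12.2% and 12.4% of the IL1B value with PBSL plus IL-1β, against 6.66%, 6.44% and 7.84% with IL-1β. The groups did not overlap, at means of 11.2% ± 1.98 and 6.98% ± 0.751, both far below the 53.0% of untreated cells. The log2 ratio differed by 0.59 (exact permutation test, two-sided p = 0.1, the smallest possible here).

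**Figure D2:**
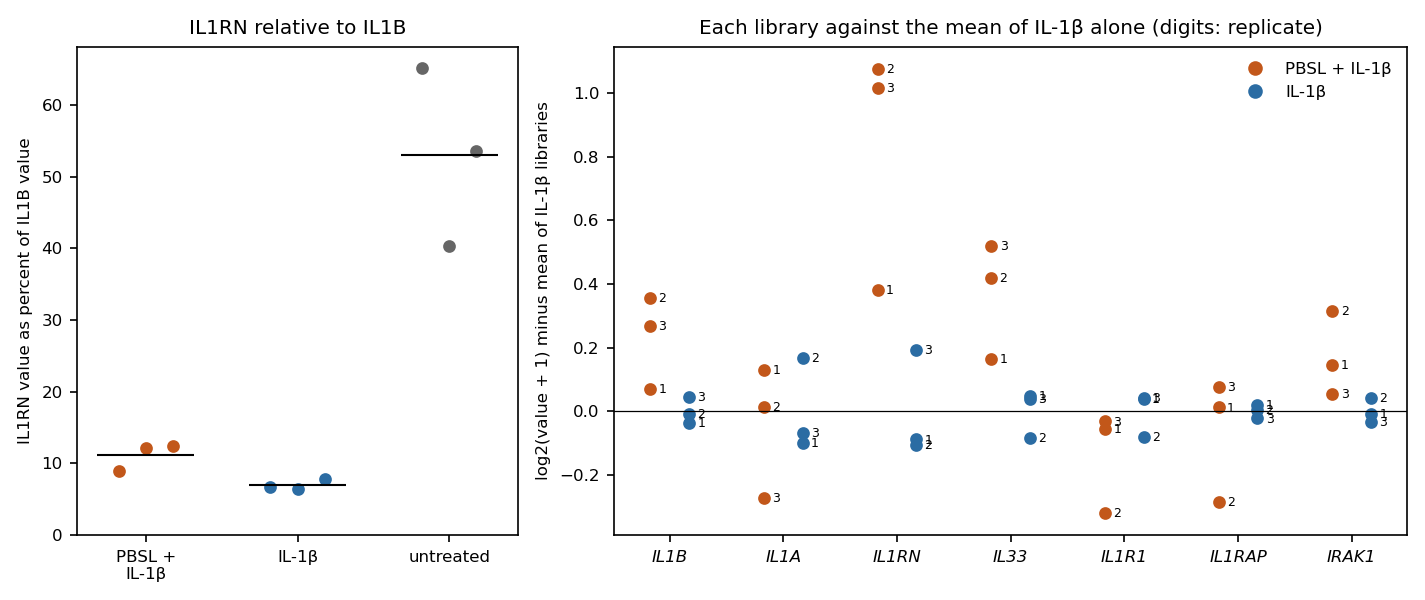
Left, the IL1RN value as a percentage of the IL1B value in each library (points) with group means (lines) for PBSL plus IL-1β, IL-1β and untreated cells; the PBSL plus IL-1β libraries lie between 8.89% and 12.4% and the IL-1β ones between 6.44% and 7.84%. Right, log2(value + 1) of 7 genes in each PBSL plus IL-1β and IL-1β library minus the mean of the IL-1β libraries, with the replicate number beside each point; IL1RN libraries 2 and 3 are the highest points.

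IL33 averaged 0.841 ± 0.227 with PBSL plus IL-1β and 0.420 ± 0.0714 with IL-1β, still below the filter. Without the filter, where 11.5% of genes were called, the log2 fold change was 0.37 (SE 0.0850, limma adjusted p = 0.0305). With 0.1 added in place of 1, it was 0.83 and the call was lost (adjusted p = 0.0594). At these values the difference rests on fractions of 1 unit per library.

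IRAK1 had all PBSL libraries above the IL-1β ones, with a log2 fold change of 0.17 (SE 0.0654, limma adjusted p = 0.0784), and was called only without PBSL plus IL-1β library 3 (0.23, adjusted p = 0.0314). Without PBSL plus IL-1β library 2 it was 0.10 (adjusted p = 0.238). IL1A gave -0.04 (95% interval -0.29 to 0.21, limma adjusted p = 0.824). Among the receptors IL1R1 gave -0.14 (-0.33 to 0.06, limma adjusted p = 0.297) and IL1RAP -0.07 (-0.25 to 0.12, limma adjusted p = 0.617). For both receptors, PBSL plus IL-1β library 2 was the lowest library of its group, at 12.5 for IL1R1 and 7.71 for IL1RAP. The log2 ratio of IL1R2 to IL1R1 differed by 0.11 with 1 added to each value (exact permutation test, two-sided p = 0.6) and by 0.04 with 0.1 added.

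**Figure D3:**
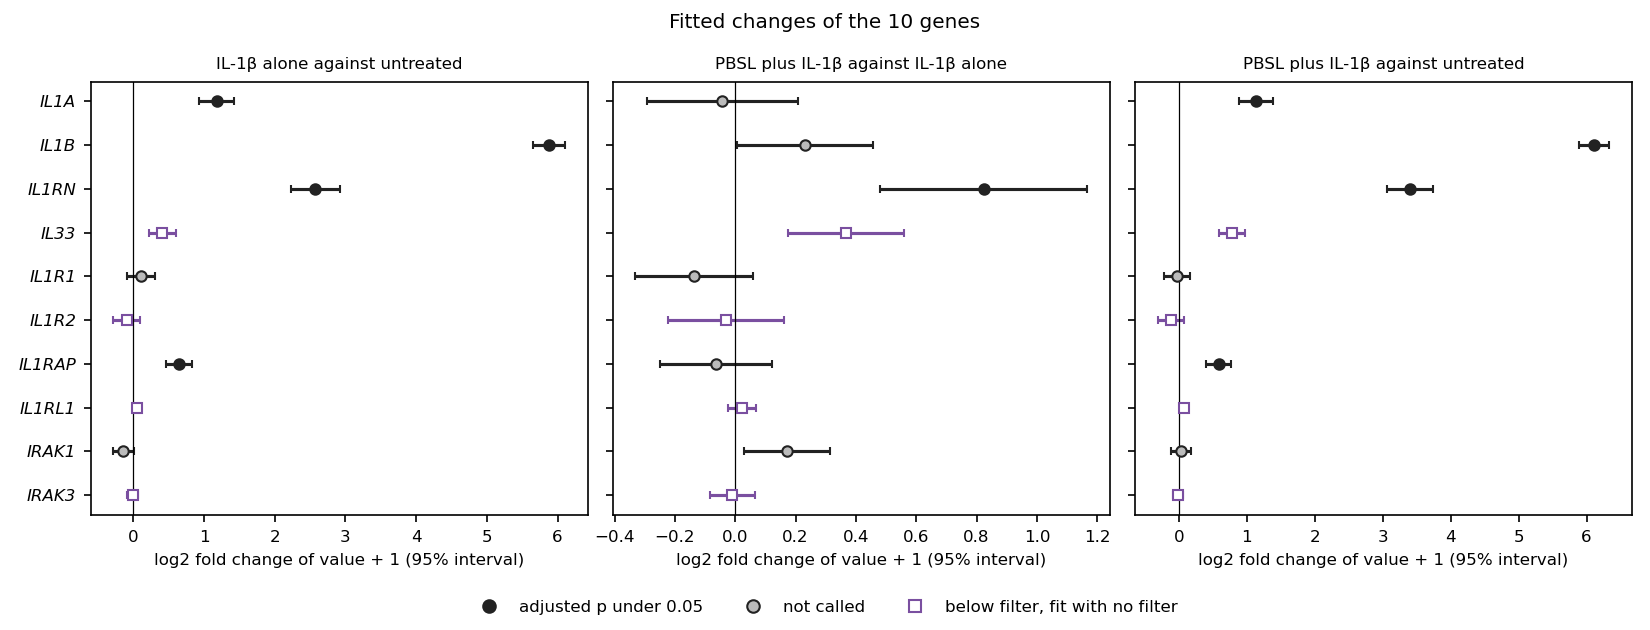
Fitted log2 fold change of value + 1 with its 95% interval (x axis) for the 10 genes in 3 comparisons: IL-1β against untreated, PBSL plus IL-1β against IL-1β, and PBSL plus IL-1β against untreated. Filled circles have an adjusted p under 0.05, grey circles do not, and open squares are genes below the filter, from a fit without it; in the middle panel IL1RN, at 0.82, is the filled circle.

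The third comparison set PBSL plus IL-1β against untreated cells and shares its libraries with the other 2. IL1B, IL1RN, IL1A and IL1RAP were called higher, 4 of the 6 tested genes, where 41.6% of all tested genes were called, 22.3% higher. The same 4 had groups that did not overlap, where 48.2% of all tested genes had, 26% higher and 22.1% lower. The log2 fold changes were 6.11 for IL1B, 3.40 for IL1RN, 1.14 for IL1A and 0.58 for IL1RAP. Their limma adjusted p-values lay between 1.40e-12 and 0.000221. IL1R1 gave -0.03 and IRAK1 0.03, with limma adjusted p-values of 0.820 and 0.730, and IL33 without the filter gave 0.78 (limma adjusted p = 0.000249), where 29.3% of genes were called.

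The ligand cluster of chromosome 2 spans 360 kb in hg38, from 112773915 to 113134016, and holds 9 genes of the family. IL1A (112773915 to 112784590) and IL1B (112829751 to 112836903), both on the minus strand, lie at one end, and IL1RN (113107214 to 113134016, plus strand) at the other. Between them, IL36G, a ligand of epithelial inflammation, had 31.1 ± 5.84 with PBSL plus IL-1β, 23.2 ± 0.887 with IL-1β and 0.207 ± 0.167 untreated. IL36B, a second IL-36 ligand, had 33.0 ± 2.19, 28.5 ± 0.433 and 9.88 ± 1.11 in the same groups. IL36RN, the antagonist of the IL-36 receptor, had 4.76 ± 1.18, 2.87 ± 0.0392 and 0.0523 ± 0.0306. The other 3 genes of the cluster, IL37, IL36A and IL1F10, stayed below 1 in every library.

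The receptor cluster lies on the same chromosome at 101991844 to 102452565, with 6 genes in 461 kb. Of these IL1R1 (102064544 to 102179874) was the one above 1 in any library. IL1RL2, the receptor of the IL-36 ligands, was listed at 0 in all 9 libraries, and IL1R2, IL1RL1, IL18R1 and IL18RAP reached at most 0.606. IL36G and IL36B were thus measured in cells where the transcript of their receptor was listed at 0. The remaining genes of the axis lie elsewhere: IL33 on chromosome 9 (6215786 to 6257983), IL1RAP on chromosome 3 (190514051 to 190659750), IRAK3 on chromosome 12 (66188879 to 66254622) and IRAK1 on chromosome X (154010500 to 154019980).

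**Figure D4:**
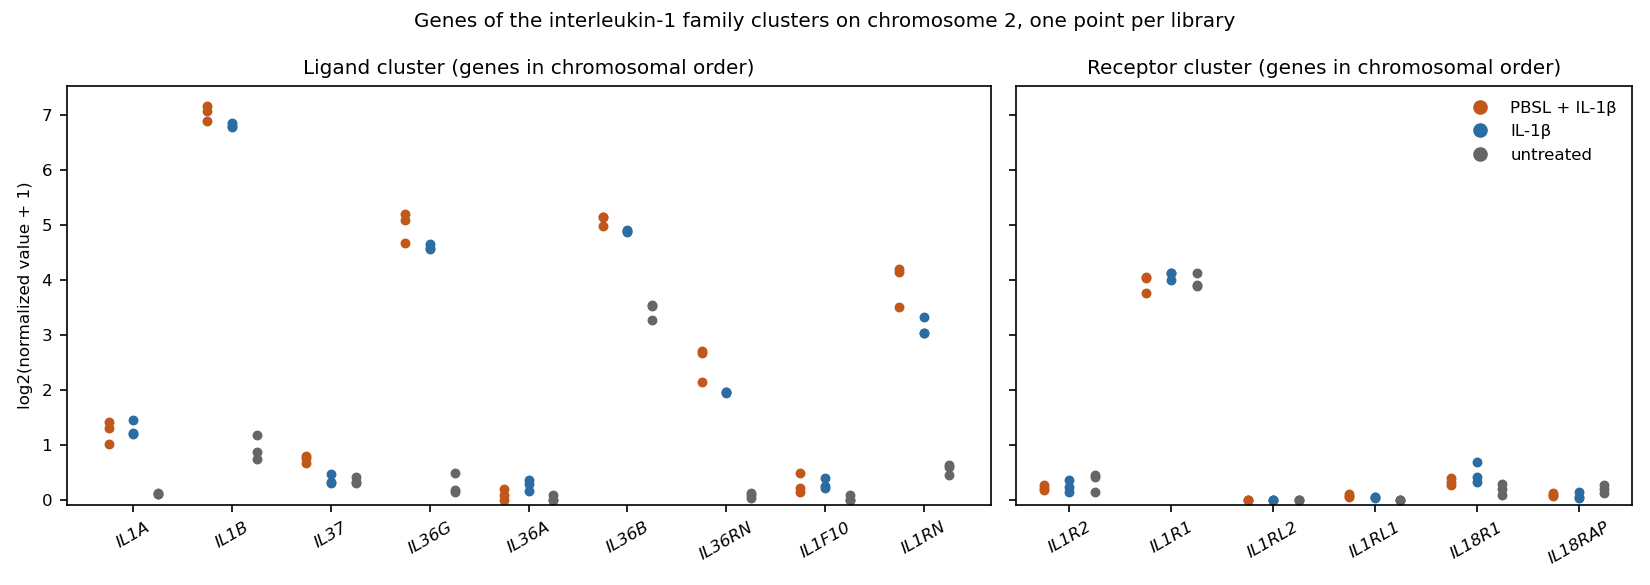
Log2(value + 1) of the genes of the ligand cluster (left) and receptor cluster (right) in chromosomal order, 1 point per library of PBSL plus IL-1β, IL-1β and untreated cells. In the ligand cluster 6 of 9 genes exceed 1 in the libraries given IL-1β, and in the receptor cluster IL1R1 stands alone.

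The rest of the pathway was read from 4 lists of other genes. Of the 14 other family ligands and receptors, 5 were tested, and with IL-1β 4 rose and 0 fell against untreated cells, where 16.2% of all tested genes rose and 16% fell. IL36G rose by 4.33 on the log2 scale (SE 0.127, limma adjusted p = 1.91e-10), IL36RN by 1.88 and IL36B by 1.44. IL18BP, the secreted binding protein that neutralizes IL-18, rose by 0.83 (adjusted p = 1.63e-05). The median of the 5 was 1.44, beside -0.00 for all tested genes, and IL36G and IL36RN passed the filter only through libraries given IL-1β.

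With PBSL, 2 of those 5 rose and 1 fell against IL-1β alone, where 11.5% of all tested genes rose and 11% fell. IL36RN rose by 0.55 (SE 0.128, limma adjusted p = 0.0121), a call lost without PBSL plus IL-1β library 2 (adjusted p = 0.0535). That call was also lost with no filter and 0.1 added (adjusted p = 0.0692). IL36G rose by 0.39 (limma adjusted p = 0.0463), and was called in 6 of 17 alternatives; the call was lost, among others, without untreated library 2, any of the 3 IL-1β libraries, or PBSL plus IL-1β library 2 or 3 (adjusted p 0.0592 to 0.156). IL18BP fell to 1.56 ± 0.240 with PBSL plus IL-1β, against 2.67 ± 0.161 with IL-1β, by 0.52 on the log2 scale (limma adjusted p = 0.00387), and was called in all 16 alternatives that could be run. Of the soluble inhibitors of the family, IL1RN and IL36RN were called higher with PBSL and IL18BP lower.

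All 20 genes of proximal receptor signalling were tested. With IL-1β 5 rose and 0 fell, with a median of -0.02, where 32.1% of all tested genes were called (16.2% higher, 16% lower). IRAK2, the kinase of sustained IL-1 signalling, had 6.69 ± 0.514 with IL-1β and 1.09 ± 0.163 untreated, a rise of 1.88 on the log2 scale (SE 0.0945, limma adjusted p = 3.54e-08). TIFA, a TRAF6-binding adaptor, rose by 0.89, SQSTM1, a signalling scaffold and autophagy receptor, by 0.60 and MYD88 by 0.45 (limma adjusted p at most 0.00173). TAB2, an adaptor of the TAK1 kinase, rose by 0.26 (limma adjusted p = 0.0219), a call lost without any 1 of the 3 untreated libraries or IL-1β library 1 or 2 (adjusted p 0.0534 to 0.0690). Thus among IRAK transcripts IRAK2 was called while IRAK1 and IRAK4 were not.

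With PBSL, 0 of those 20 rose and 1 fell, where 22.5% of all tested genes were called (11% lower). MYD88, the adaptor next to the receptor, had 18.6 ± 2.28 with PBSL plus IL-1β and 22.9 ± 1.18 with IL-1β, a log2 fold change of -0.29 (limma adjusted p = 0.0306). The call was lost without any 1 of the 3 IL-1β libraries or PBSL plus IL-1β library 2 or 3 (adjusted p 0.0511 to 0.112). It was also lost with all libraries when the filter was dropped, with 1 added (adjusted p = 0.0667) or 0.1 added (adjusted p = 0.0591).

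Of 20 genes of ligand processing and release, 15 were tested, and with IL-1β 11 rose and 2 fell, with a median of 0.38, where 32.1% of all tested genes were called (16.2% higher, 16% lower). CASP1, which cleaves pro-IL-1β, had 5.01 ± 0.385 with IL-1β and 1.68 ± 0.364 untreated, a rise of 1.17 (SE 0.104, limma adjusted p = 4.44e-06). MEFV, which encodes pyrin, rose by 1.13, NINJ1, a membrane-rupture protein, by 0.72, CASP4 by 0.67 and GSDME, a pore-forming gasdermin, by 0.47. CAPN2, a subunit of the calpain protease that can process IL-1α, fell by 0.38 (limma adjusted p = 0.000278). MEFV and NLRP3, both among the 11, passed the filter only through libraries given IL-1β. Of the untested genes of this list, PYCARD was above 0 only in untreated library 1, at 0.747. CASP5, NLRC4 and AIM2 reached at most 0.061, 0.059 and 0.304, and CARD16 at most 1.02.

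With PBSL, 1 of the 15 rose and 3 fell, near the 22.5% called over all tested genes. Without PBSL plus IL-1β library 1, 6 fell, and 3910 genes in all were called, against 2684 with it. GSDMD, the gasdermin pore through which IL-1β leaves macrophages, had 11.5 ± 2.42 with PBSL plus IL-1β and 16.3 ± 0.726 with IL-1β (log2 fold change -0.48, limma adjusted p = 0.0116), a call lost without PBSL plus IL-1β library 2 (adjusted p = 0.0503). NLRP1, an inflammasome sensor, gave -0.53 (limma adjusted p = 0.0129), also lost without that library (adjusted p = 0.0548). GSDME gave -0.20 (limma adjusted p = 0.0184, lost without IL-1β library 2 or 3 at 0.0695 and 0.0827). CAPN2 rose by 0.22 (limma adjusted p = 0.0168), lost without any 1 of the 3 IL-1β libraries or PBSL plus IL-1β library 2 (adjusted p 0.0516 to 0.0623). CASP1 was not called, at 4.13 ± 0.350 with PBSL plus IL-1β and 5.01 ± 0.385 with IL-1β.

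The 12 feedback inhibitors were all tested, and with IL-1β 9 rose and 1 fell, with a median of 0.39, beside the same 32.1% (16.2% higher). ZC3H12A, an RNase that degrades cytokine transcripts, rose by 3.57 on the log2 scale and TNFAIP3, the ubiquitin editor A20, by 3.08. NFKBIA, the NF-κB inhibitor IκBα, rose by 2.19, TNIP1, a partner of A20, by 1.73, SOCS1 by 0.84 and CYLD, a deubiquitinase, by 0.48 (limma adjusted p at most 0.000168). With PBSL, 0 of the 12 rose and 1 fell, beside 22.5% called over all tested genes. Without PBSL plus IL-1β library 1, 4 fell, when 3910 genes in all were called rather than 2684. The 1 was DUSP1, a phosphatase of MAP kinases, with 17.2 ± 3.08 with PBSL plus IL-1β and 28.7 ± 1.39 with IL-1β (log2 fold change -0.72, SE 0.0994, limma adjusted p = 0.00282, called in all 17 alternatives).

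In PBSL plus IL-1β against untreated cells, where 41.6% of all tested genes were called (22.3% higher, 19.3% lower), 4 rose and 0 fell of the 5 other family genes tested, 3 rose and 3 fell of the 20 proximal genes, 7 rose and 3 fell of the 15 processing genes, and 7 rose and 2 fell of the 12 inhibitors. The proximal genes that fell were TAB3, a partner of TAB2, at -0.32 on the log2 scale (limma adjusted p = 0.0121), TAB1 at -0.17 and PELI1, a ubiquitin ligase acting on IRAK1, at -0.22. The calls of TAB1 and PELI1 were made in 8 of 17 and 5 of 16 alternatives, with adjusted p up to 0.0991 and 0.129 otherwise. Among the others, CAPN1, a second calpain, gave -0.25 (limma adjusted p = 0.00718) and DUSP1 -1.04 (limma adjusted p = 8.02e-06).

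**Figure D5:**
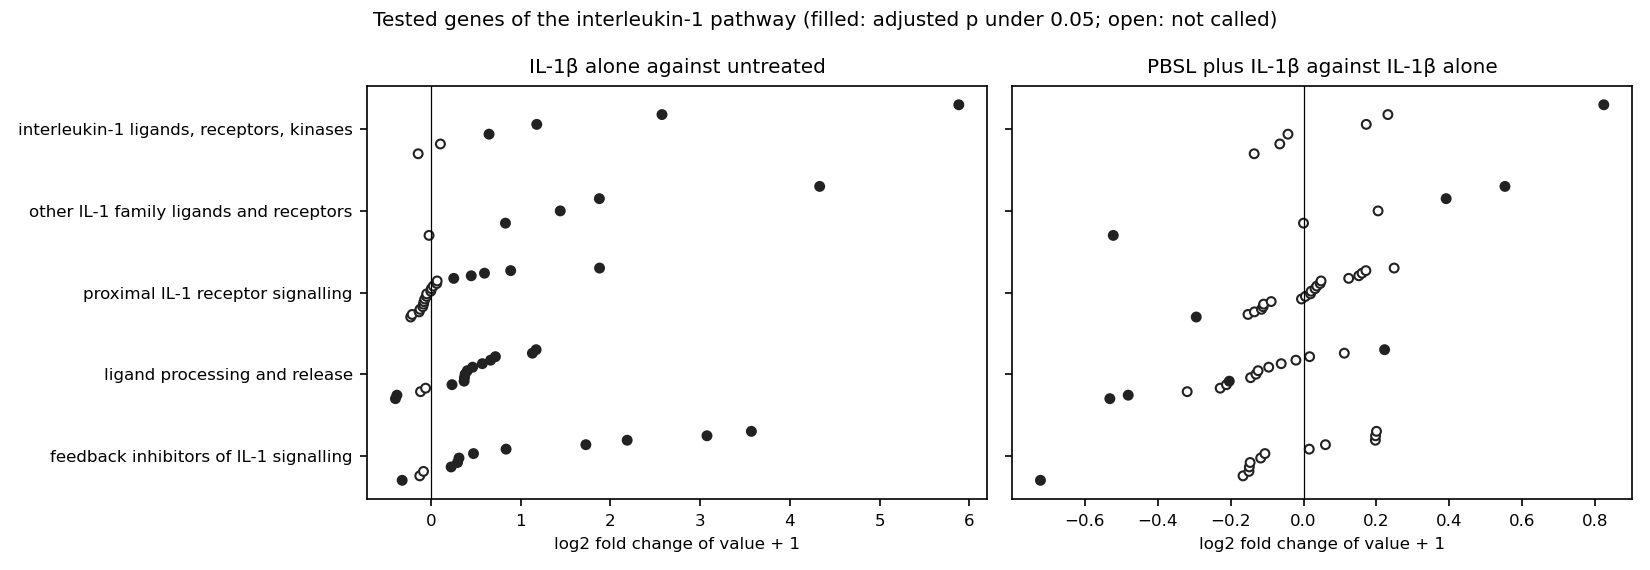
Fitted log2 fold change of value + 1 (x axis) of each tested gene of the IL-1 axis and of 4 lists of other pathway genes, for IL-1β against untreated (left) and PBSL plus IL-1β against IL-1β (right). Filled points have an adjusted p under 0.05; on the right IL1RN at 0.82 and DUSP1 at -0.72 are the extremes.

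Some genes followed the axis closely over the 9 libraries. By Pearson correlation of log2(value + 1), SERPINB2 (r = 0.999), LPXN, NFKBIZ, NEFL and CXCL8 were most like IL1B. IL36RN (r = 0.998), ATP2B1, MMD, NIFK and EPHB2 were most like IL1RN. IL1R1, whose libraries varied little, was most like C21orf91 (r = 0.962), TTC30A, PHEX, DNAJC25-GNG10 and SERINC3. These are descriptions over libraries that fall into 3 groups and share each library's depth and normalization.

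IL1B, IL1RN and the processing genes are also known from myeloid cells, whose markers were therefore read in the same libraries. Of 10 macrophage and monocyte markers 3 were tested. Their summed level over the 10 was 85.9 to 91.6 with PBSL plus IL-1β, 100.6 to 104 with IL-1β and 73.1 to 80.5 untreated, most of it CD68. CD68, CSF1R and FCER1G were called higher with IL-1β than in untreated cells (log2 fold changes 0.41, 0.33 and 0.60, limma adjusted p at most 0.00419), and CD68 was called lower with PBSL plus IL-1β than with IL-1β (-0.22, limma adjusted p = 0.0139). Of the untested markers, LYZ was highest, at 0.523 to 0.841 with PBSL plus IL-1β, 0.729 to 0.99 with IL-1β and 0.891 to 1.06 untreated. CD14 was at most 0.53, AIF1 at most 0.459 and PTPRC at most 0.393. CD163 was at most 0.094, ITGAM at most 0.092 and C1QA at most 0.046. The 8 neutrophil markers summed to 24.4 to 34.1, 40.9 to 48.0 and 12.9 to 37.5 in the same groups, of which S100A8, S100A9 and FPR1 were tested and the other 5 were below 1 in every library. FPR1 was called higher with IL-1β than in untreated cells (log2 fold change 0.63, limma adjusted p = 0.000155). It was called lower with PBSL plus IL-1β than with IL-1β (-0.66, limma adjusted p = 0.00261). S100A8 was called higher with IL-1β than in untreated cells (2.43, limma adjusted p = 0.0118) and S100A9 was not (2.20, limma adjusted p = 0.0555). Neither was called in PBSL plus IL-1β against IL-1β (limma adjusted p = 0.594 and 0.623). Untreated library 1 had 8.49 for S100A8 and 16.3 for S100A9, where the other 2 untreated libraries had at most 0.144, and IL1B there was 0.824, between the other 2. The 5 endothelial markers summed to at most 1.33 and the mast cell markers to at most 0.067, and the keratinocyte sum, 31.2 to 44.9 over all libraries, was mostly KRT10. Untreated library 1 stood apart there too, with 3.24 for KRT5, 1.93 for KRT14 and 1.84 for KRT6A, against at most 0.868, 0.709 and 0.02 in the other untreated libraries. Without that library, IL-1β against untreated gave log2 fold changes of 5.85 for IL1B, 2.61 for IL1RN, 1.18 for IL1A and 0.66 for IL1RAP, all still called. The part of CD68, CSF1R, FCER1G, FPR1, S100A8, S100A9 and the keratin genes in the results was not tested.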

How the data were processed

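SW1353 mRNA libraries, 3 per group, were made with an MGIEasy directional kit, per the labels' protocols. Trim Galore, STAR, HTSeq and the build hg38 are named without versions, per the submitters' processing notes. The deposited signal values, 1 per gene and library, had been normalized by the authors. Their smallest values above 0 fell with gene length (slope -0.878 on log10 scales, 2039 genes), and whether they are FPKM or TPM is not given in the sources used here. They are not counts, so no count test was run, depth is unknown and so is the handling of reads shared between genes.

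Genes reaching 1 in at least 3 of the 9 libraries were tested on log2(value + 1) with limma 3.58.1 (R 4.3.3, trend of variance on mean, 1 model with 3 group means, 6 residual degrees of freedom). Calls needed a Benjamini-Hochberg adjusted p under 0.05 over all tested genes, 2-sided. Intervals are 95% and not adjusted. Within-library ratios had exact permutation tests in Python 3.11.15. The procedure was tested on simulated data. The replicate numbers were not taken to pair libraries, since the labels do not say that they do. Deviations from the group means correlated between -0.225 and 0.0681 for same-numbered libraries of different groups. For different-numbered ones they correlated between -0.111 and 0.196. Such deviations cancel out within each group of 3, so these values do not decide pairing. No 2 libraries were identical. Alternatives were another pseudocount, other filters, no trend, 2 groups only, a replicate block, median-ratio rescaling and leaving out each library.

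The 10 genes, 4 pathway lists (66 genes) and 6 marker lists were chosen with earlier results of these data known. Named were all 10 genes, up to 6 called genes of each pathway list with the smallest p in each comparison, and the 5 genes most correlated with IL1B, IL1RN and IL1R1. IRAK4, NLRP3, the markers, IL37, IL36A, IL1F10, IL1RL2, IL18R1, IL18RAP and CASP1 beside PBSL were named after their values were seen. So were PYCARD, CASP5, NLRC4, AIM2 and CARD16. Gene positions are from GENCODE 29, promoters from RefSeq.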

Additional observations from a re-analysis of the deposited data

How the results depend on the processing

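Each value was recomputed under up to 17 alternatives, of which the fit with no filter and a pseudocount of 0.1 was chosen after seeing the data. Of the recomputed fold changes of the 10 genes, 358 under the alternatives listed earlier and 20 under the added one stayed the same, 7 reversed, 4 became called and 10 moved. For tested genes, the same meant an unchanged direction and side of the threshold. For the 4 below the filter it meant a shift no larger than the SD of the more variable group, and changes of sign were not counted. Their values on leaving out a library were differences of mean log2(value + 1), without a test. All 7 reversals were in tested genes, in differences near 0 that were never called, on leaving out 1 library. IL1A (PBSL plus IL-1β against IL-1β) ranged between -0.13 and 0.072 on the log2 scale and IL1RAP in that comparison between -0.14 and 0.044. Against untreated cells with PBSL plus IL-1β, IL1R1 ranged between -0.080 and 0.063 and IRAK1 between -0.040 and 0.090. The cause was not tested. The number of the 10 genes called in PBSL plus IL-1β against IL-1β was 1, 2 without the filter (IL33 added) and between 1 and 2 on leaving out each library (IL1B added without PBSL plus IL-1β library 1, IRAK1 without library 3). All genes called there ranged between 1304 and 3910. With a pseudocount of 0.1 the difference in the IL1RN to IL1B log2 ratio between IL-1β and untreated cells was -3.01 rather than -3.31.

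With the replicate number as a block, 4, 1 and 4 of the 10 genes were called in IL-1β against untreated, PBSL plus IL-1β against IL-1β and PBSL plus IL-1β against untreated, as without it, and 3479, 2131 and 4535 of all genes. The block changed no call among the 10 and, of the named list genes, ended only calls of the third comparison. The unknown depth and the low level of IL33, IL1R2, IL1RL1 and IRAK3 limit what can be said of these 4.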
